A study of Rattus norvegicus with 18 samples.

Results

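The genes described here encode 8 proteins that myelinating Schwann cells put into the myelin sheath or the membranes around it: *Mbp*, *Mag*, *Prx*, *Pmp22*, *Pmp2*, *Cnp*, *Mal* and *Ncmap*. They were taken by symbol from the poly(A) RNA count table of rat dorsal root ganglia (DRG), and make up 8 of its 15075 RefSeq identifiers. The DRG of cervical levels C6-C8 came from 18 adult Lister hooded rats, 6 in each of 3 groups. Naïve rats were unoperated. Both other groups had bilateral pyramidotomy (bPYX), a cut of both corticospinal tracts in the medulla, and were examined 10 weeks after the injury. They had received a viral vector (AAV1 with the CMV promoter) in forelimb flexor muscles on one side, which carried either the gene for green fluorescent protein (bPYX+GFP) or that for neurotrophin-3 (bPYX+NT3). The ganglia of the treated side of each rat were pooled into 1 library, so each value is that of 1 rat, and a library holds neurons, satellite glia, Schwann cells and the cells of vessels and sheath together. In such a mixed sample, fewer Schwann cells and less RNA per Schwann cell cannot be told apart. No naïve rat was operated or injected, so differences from naïve rats cannot be divided between the injury, the surgery and the vector.

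Libraries had between 10057787 and 16002410 read-pairs on genes. Groups are those of the rat numbers that head the series count table, whose sample numbers match the recorded sample descriptions. The counts deposited for each sample were identical to a column of that table in 18 of 18 cases, but for 18 of 18 samples it was the column of another rat, and for 17 of them a rat of another group. Taken in the order of the samples, the deposited files held the rats by ascending number, from rat 2 to rat 57. The reason for this order was not tested. Files titled naïve held rats 2, 5, 11, 15, 17 and 18, and those titled GFP rats 21, 23, 39, 40, 41 and 42. Those titled neurotrophin-3 held rats 43, 44, 45, 49, 52 and 57. By the heading, no file titled neurotrophin-3 held a bPYX+NT3 rat, and no file titled naïve held a naïve rat. Where the groups were formed from those files and the recorded titles, several results below turned in direction. These are given beside each comparison. The libraries of 2 rats stood apart: the median correlation with the rest of the group was 0.971 for bPYX+GFP rat 57 and 0.975 for bPYX+NT3 rat 11 (log2 CPM), against at least 0.983 for every other rat. These rats also had the lowest shares of reads on no gene, 31.7% and 30.8% of the read-pairs, against 32.5% to 34.6% in the other 16.

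A Schwann cell of a peripheral nerve wraps its membrane around a stretch of a single axon and compacts the layers into myelin. Compact myelin is held together by membrane-spanning and cytoplasmic proteins such as those of *Mbp*, *Pmp22* and *Pmp2*, while uncompacted parts of the sheath hold other proteins, among them those of *Mag*, *Cnp* and *Prx*. In the ganglion, such cells ensheathe the axons that leave the sensory neurons. *Mbp*, *Mag*, *Cnp* and *Mal* are also used by oligodendrocytes, the myelinating cells of the central nervous system. Genes of this kind are under the control of the transcription factors Sox10 and Egr2.

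Each member was present under 1 RefSeq identifier in the table: NM_017190 (*Mag*), NM_023976 (*Prx*), NM_017037 (*Pmp22*), NM_001109514 (*Pmp2*), NM_012809 (*Cnp*), NM_012798 (*Mal*), NM_001253918 (*Ncmap*) and NM_001025289 (*Mbp*). *Mbp* had only 26 to 67 reads per rat under this identifier. The files of the samples list 5 more *Mbp* identifiers, all at 0 reads. Reads that fit several identifiers were not counted, so the *Mbp* values here cover only a small part of its messenger RNA and are uncertain. The other members had between 46 and 29441 reads per rat, *Mag* and *Ncmap* being the lowest of them, and all 8 passed the filter on low counts.

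The promoters of 4 members are shown because they form the pairs that varied together most closely within the sets described further on: *Prx* with *Ncmap*, and *Pmp22* with *Mal*. Each sequence (RefSeq, build GRCr8) holds 250 bases before and 50 bases after the start of the gene, 5′ to 3′ on the strand of the gene. Capitals mark a match to GGAATG, the core letters recognised by TEAD factors, on either strand.
Prx, chr1:91914171-91914470, plus strand: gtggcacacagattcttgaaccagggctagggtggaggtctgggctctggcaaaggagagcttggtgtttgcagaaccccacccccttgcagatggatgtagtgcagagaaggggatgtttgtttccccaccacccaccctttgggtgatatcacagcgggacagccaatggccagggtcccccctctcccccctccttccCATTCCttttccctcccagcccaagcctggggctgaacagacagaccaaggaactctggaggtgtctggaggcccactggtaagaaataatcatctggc
Ncmap, chr5:152902365-152902664, minus strand: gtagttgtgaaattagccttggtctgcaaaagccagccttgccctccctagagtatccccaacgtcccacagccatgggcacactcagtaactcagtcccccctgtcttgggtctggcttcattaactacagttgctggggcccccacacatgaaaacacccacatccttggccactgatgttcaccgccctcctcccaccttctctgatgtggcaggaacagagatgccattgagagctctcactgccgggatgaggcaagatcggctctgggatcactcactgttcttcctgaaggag
Pmp22, chr10:48294682-48294981, plus strand: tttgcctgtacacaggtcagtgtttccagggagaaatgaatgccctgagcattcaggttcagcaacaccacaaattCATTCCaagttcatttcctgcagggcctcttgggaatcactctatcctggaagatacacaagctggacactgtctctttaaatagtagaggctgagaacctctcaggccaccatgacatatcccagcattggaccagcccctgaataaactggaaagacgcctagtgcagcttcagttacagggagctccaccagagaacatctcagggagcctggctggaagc
Mal, chr3:135341374-135341673, minus strand: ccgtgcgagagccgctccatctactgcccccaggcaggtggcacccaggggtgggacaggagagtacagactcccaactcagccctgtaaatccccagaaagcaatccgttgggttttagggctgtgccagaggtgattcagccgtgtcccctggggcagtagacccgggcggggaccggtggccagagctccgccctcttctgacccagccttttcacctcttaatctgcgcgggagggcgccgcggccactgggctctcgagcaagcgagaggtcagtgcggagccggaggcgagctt
*Prx* and *Pmp22* each held 1 such match, on the strand opposite to the gene, from base 202 and base 77 of the window. GGAATG was in 14.2% of all 33469 promoters of the same length. The letters ACAAAG, bound by SOX factors, were found in the promoters of *Mag*, *Cnp* and *Mbp*, and in 18.8% of all promoters; the alternative SOX letters ACAATG were found for *Mbp*, and in 13.2% of all. No member promoter held GCGTGGGCG, the EGR letters (0.544% of all promoters), or TATAAA (14.2% of all). *Mbp* had 2 promoters in the reference and *Pmp2* was not among them. These matches are letters in a window and not measured binding sites.

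Between bPYX+GFP and naïve rats, the question was which genes differ in the ganglia after the injury. *Pmp2*, *Mal*, *Cnp* and *Pmp22* fell, with fitted levels in bPYX+GFP rats at 0.659, 0.738, 0.807 and 0.809 of those in naïve rats. *Mag*, *Prx*, *Ncmap* and *Mbp* did not pass the test, although their fitted differences were also below 0. A gene was called where edgeR's quasi-likelihood fit gave it an unadjusted p below 0.05, the threshold used in the study. Thus 4 of 8 members were called lower and none higher, against 2.52% of 11601 genes called lower and 3.25% called in either direction. The members were chosen with earlier results of these data known, so this contrast is a description and no test. *Pmp22*, *Pmp2* and *Mal* also varied together between rats (r from 0.79 to 0.83, described further on), so their calls are not independent. No gene passed an adjusted p under 0.05 (377 had an unadjusted p under 0.05, the likelihood ratio test in edgeR gave 13 genes and DESeq2 16). The median log2 fold change of the 8 members was -0.31, and that of all genes 0.01. Log2 fold changes were below 0 for 8 of 8 members and 43.9% of all genes. In normalized counts, which are reads scaled to a common library size, values are given below as the lowest, the median and the highest of the 6 rats.

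**Figure D1:**
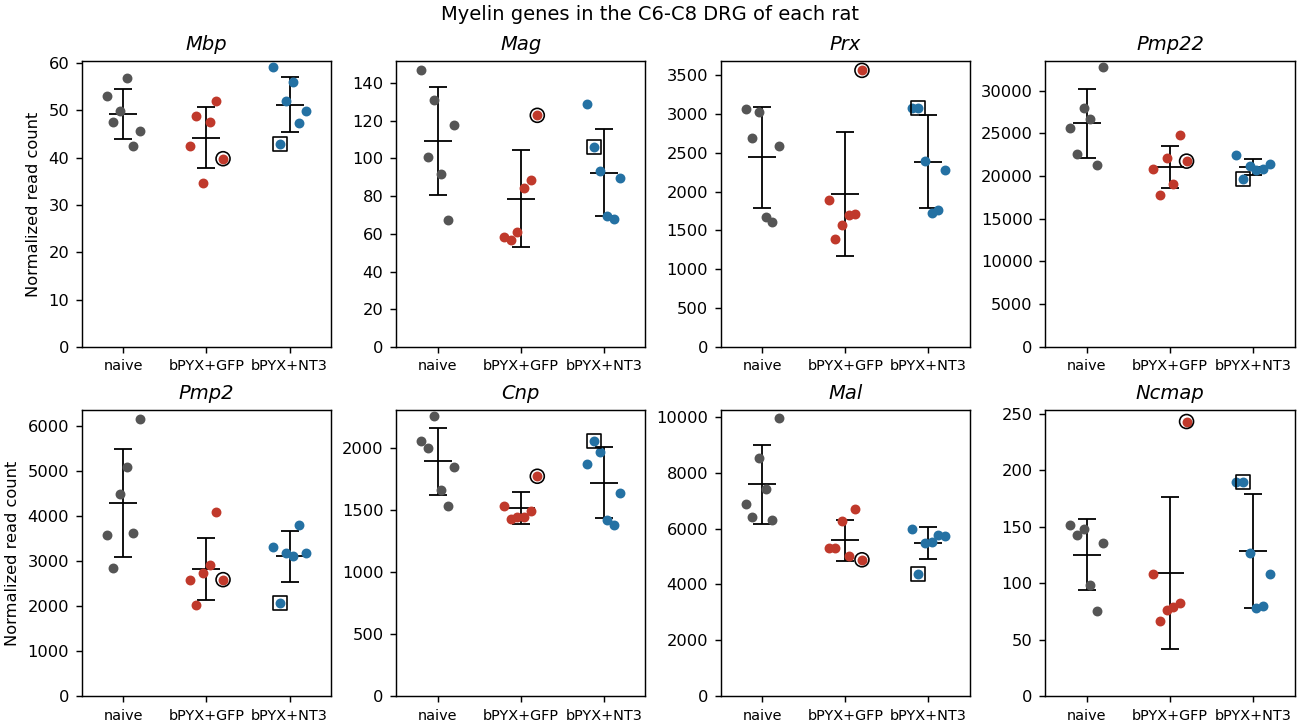
Normalized read counts of the 8 myelin genes in each rat (points), with the mean and SD of each group of 6 (bars). The open circle marks bPYX+GFP rat 57 and the open square bPYX+NT3 rat 11. In *Mal*, all 6 bPYX+NT3 rats lie below every naïve rat, and in *Prx* and *Ncmap*, rat 57 lies above every other rat.

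Among the proteins of compact myelin, *Pmp22* encodes a tetraspan membrane protein whose dosage is altered in inherited neuropathies. Its normalized counts were 21337, 26157 and 32727 in naïve rats, 17777, 21320 and 24814 in bPYX+GFP rats, and 19670, 21013 and 22450 in bPYX+NT3 rats. The naïve median exceeded all 6 bPYX+GFP values, and 3 of these were also under the lowest naïve rat, so the groups overlapped. *Pmp22* fell by 0.31 on the log2 scale between naïve and bPYX+GFP rats (SE 0.106, edgeR p = 0.0119, adjusted p = 0.9998; two-sided exact permutation p = 0.0195). The spread of *Pmp22* between bPYX+NT3 rats was small, with a coefficient of variation of 4.35% against 15.6% in naïve and 11.7% in bPYX+GFP rats. Differences in spread were not tested. Compared with naïve rats, the spread in bPYX+NT3 rats was wider for *Cnp*, *Ncmap* and *Mbp* and narrower for the other members.

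*Pmp2* encodes a fatty acid binding protein on the cytoplasmic face of the myelin membrane. Its lowest, median and highest counts were 2833, 4053 and 6137 in naïve rats, 2017, 2654 and 4082 in bPYX+GFP rats, and 2064, 3172 and 3790 in bPYX+NT3 rats. Here 4 of 6 bPYX+GFP rats were below the lowest naïve rat, while rat 52 was above the naïve median. The fall between naïve and bPYX+GFP rats was the largest of the members, -0.60 (SE 0.186, 95% interval -1.001 to -0.20, edgeR p = 0.00614, adjusted p = 0.859; exact permutation p = 0.0281).

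*Mal* encodes a small proteolipid of lipid-rich membranes that takes part in carrying membrane to the sheath. It had 6310, 7143 and 9972 counts in naïve rats, 4885, 5312 and 6702 in bPYX+GFP rats, and 4378, 5645 and 5980 in bPYX+NT3 rats. In bPYX+GFP rats 5 of 6 values were under the lowest naïve value, and in bPYX+NT3 rats 6 of 6. The log2 fold change between bPYX+GFP and naïve rats was -0.44 (SE 0.116, edgeR p = 0.00213, adjusted p = 0.777; exact permutation p = 0.00866).

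*Mbp*, for the basic protein that closes the cytoplasmic faces of compact myelin, had 42.42, 48.74 and 56.95 counts in naïve rats, 34.57, 44.99 and 52.01 in bPYX+GFP rats, and 42.92, 50.9 and 59.19 in bPYX+NT3 rats. The 3 groups overlapped. Between bPYX+GFP and naïve rats its log2 fold change was -0.15 (95% interval -0.43 to 0.14; exact permutation p = 0.171).

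Of the proteins of uncompacted myelin, *Cnp* encodes a membrane-bound phosphodiesterase. Its counts ran from 1534 over a median of 1925 to 2265 in naïve rats, from 1430 over 1472 to 1775 in bPYX+GFP rats, and from 1380 over 1758 to 2058 in bPYX+NT3 rats. All bPYX+GFP rats but rat 57 were lower than every naïve rat. *Cnp* fell by 0.31 (log2 scale) between naïve and bPYX+GFP rats (SE 0.0934, edgeR p = 0.00518, adjusted p = 0.847; exact permutation p = 0.0152).

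*Mag* encodes an adhesion molecule of the inner membrane that faces the axon. It ran from 67.2 over 109.2 to 147.0 counts in naïve rats, from 56.5 over 72.7 to 122.9 in bPYX+GFP rats, and from 68.1 over 91.4 to 129.0 in bPYX+NT3 rats. Although 5 of 6 bPYX+GFP rats were below the naïve median, the log2 fold change of -0.46 did not pass (SE 0.227, edgeR p = 0.0646; exact permutation p = 0.0801).

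*Prx* encodes periaxin, a scaffold that ties the outer Schwann cell membrane to dystroglycan. Its counts were 1606, 2642 and 3058 (lowest, median and highest) in naïve rats, 1385, 1705 and 3561 in bPYX+GFP rats, and 1723, 2333 and 3079 in bPYX+NT3 rats. Rat 57 alone had more than every naïve rat, and the other 5 bPYX+GFP rats had at most 1888. The log2 fold change was -0.30 with a 95% interval from -0.80 to 0.21 (edgeR p = 0.230; exact permutation p = 0.221).

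*Ncmap* encodes a small membrane protein of non-compact myelin. It ran from 75.1 over 139.3 to 151.7 counts in naïve rats, from 66.3 over 80.5 to 243.1 in bPYX+GFP rats, and from 77.6 over 117.1 to 189.9 in bPYX+NT3 rats. As for *Prx*, the highest value was that of rat 57, at 243.1, while the other bPYX+GFP rats reached 108.1. The log2 fold change between bPYX+GFP and naïve rats was -0.17 (95% interval -0.84 to 0.49; exact permutation p = 0.353).

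The calls of *Mag*, *Prx* and *Ncmap* changed with single rats. Without rat 57, 7 of 8 members were lower at p under 0.05 in bPYX+GFP rats, where 3.42% of all genes were called lower and 5.16% called in all. *Mag* was then at -0.64 (SE 0.201), *Prx* at -0.56 (SE 0.164) and *Ncmap* at -0.61 (SE 0.190), with exact permutation p-values of p = 0.0238, p = 0.0411 and p = 0.0368. *Mag* also passed without naïve rat 45 (-0.56). *Pmp22*, *Pmp2*, *Cnp* and *Mal* passed in each of the 12 fits that left out 1 rat. With the share of reads on no gene as a covariate, 6 of 8 members were lower with all rats kept, *Mag* (-0.50) and *Prx* (-0.39) being added, where 4.89% of genes were called lower. In the groups of the recorded titles, 1 member passed and none was called lower. *Pmp2* was 0.28 higher (exact permutation p = 0.0541), where 0.565% of all genes were called higher. *Pmp22* was at 0.06, *Mal* at 0.10, *Mag* at 0.13 and *Mbp* at 0.09. *Ncmap* was at -0.26, *Cnp* at -0.06 and *Prx* at -0.03.

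**Figure D2:**
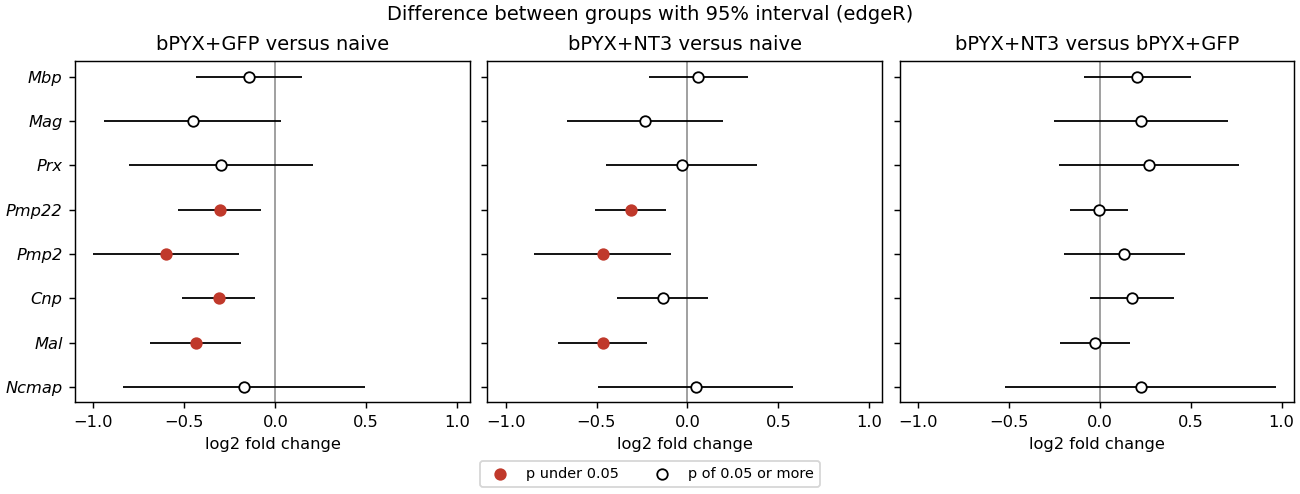
Log2 fold change of each myelin gene (points) with its 95% interval (lines) in the 3 comparisons, from edgeR's quasi-likelihood fits on 6 rats a group. Filled points have an unadjusted p under 0.05: 4 genes in bPYX+GFP against naïve rats, 3 in bPYX+NT3 against naïve rats, and none between the injured groups.

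Between bPYX+NT3 and naïve rats, *Mal*, *Pmp22* and *Pmp2* fell and the other 5 members did not pass the test. This was 3 of 8 members called lower and none higher, against 2.92% of 11693 genes called lower and 6.01% in either direction. Log2 fold changes were below 0 for 6 of 8 members against 49.9% of all genes. As before, this contrast is a description, and the 3 called members varied together between rats. No gene had an adjusted p under 0.05 (703 had an unadjusted p under 0.05, and the likelihood ratio test and DESeq2 gave 0 as well). *Mal* had a log2 fold change of -0.47 (SE 0.113, edgeR p = 0.00108, adjusted p = 0.607), and its exact permutation p of 0.00216 is the smallest that 6 rats against 6 allow. *Mal* was the only member whose groups did not overlap in this comparison, and 0.154% of all genes lay lower without overlap. *Pmp22* fell by 0.31 on the log2 scale (SE 0.0905, edgeR p = 0.00402; exact permutation p = 0.00649). For *Pmp2* the log2 fold change was -0.47 (SE 0.175, edgeR p = 0.0188), while its exact permutation p was 0.0584. Without naïve rat 49, which had the highest *Pmp2* and *Mal* counts, *Pmp2* no longer passed (edgeR p = 0.0539; no exact test was run).

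The members that did not pass in bPYX+NT3 rats lay closer to naïve rats. *Cnp* was at -0.14 (95% interval -0.39 to 0.12), *Mag* at -0.23 (-0.66 to 0.20), *Prx* at -0.03 (-0.45 to 0.38), *Ncmap* at 0.04 (-0.49 to 0.58) and *Mbp* at 0.06 (-0.21 to 0.33). These intervals still hold differences of the size called in other members. With the share of reads on no gene as a covariate *Cnp* passed as well (-0.25), which made 4 of 8 members where 2.28% of genes were called lower. In the groups of the recorded titles the 3 members that had been called were instead higher, *Pmp2* by 0.71, *Mal* by 0.42 and *Pmp22* by 0.32 (exact permutation p = 0.0108, 0.0411 and 0.0195), where 0.905% of genes were called higher.

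Between the injured groups, which asks whether neurotrophin-3 changed the level, none of the 8 members passed the test, where 1.73% of 11623 genes did. No gene passed an adjusted p under 0.05 (201 had an unadjusted p under 0.05, and 0 passed in DESeq2 or the likelihood ratio test). For *Pmp22* and *Mal*, the differences were narrow around 0: the log2 fold change of bPYX+NT3 over bPYX+GFP rats was 0.00 for *Pmp22* (95% interval -0.16 to 0.16) and -0.03 for *Mal* (-0.22 to 0.16). *Pmp2* was at 0.14 (-0.20 to 0.47), *Cnp* at 0.18 (-0.05 to 0.41), *Mbp* at 0.21 (-0.09 to 0.50), *Mag* at 0.23 (-0.25 to 0.71), *Ncmap* at 0.23 (-0.52 to 0.97) and *Prx* at 0.27 (-0.23 to 0.77). These intervals are wide, most of all that of *Ncmap*. All 6 bPYX+NT3 rats had more *Prx* than the median bPYX+GFP rat, but rat 57 exceeded them all. Without rat 57, *Prx* was 0.53 higher, *Ncmap* 0.65 higher and *Cnp* 0.23 higher in bPYX+NT3 rats, each past the threshold in edgeR (exact permutation p = 0.0238, 0.0779 and 0.106). However, 19.8% of all genes passed in that fit, 13.1% of all being higher ones, and the 3 of 8 members have to be read against these shares. *Cnp* also passed without bPYX+NT3 rat 39 (0.24 higher). In the groups of the recorded titles, *Pmp2*, *Mal* and *Pmp22* were higher in rats titled neurotrophin-3 than in rats titled GFP in edgeR. Their exact permutation p-values were p = 0.0758, 0.117 and 0.0563, and 1.16% of genes were called higher. By the heading, none of the rats titled neurotrophin-3 had received it.

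The members were then compared between the rats of each group. Deviations from the group mean in log2 CPM were correlated over the 18 rats for the 28 pairs of members, with p from 100000 permutations of rats within groups and adjusted over the 28 pairs. In 9 pairs the adjusted p was under 0.05, for Pearson's r and for Spearman's rho alike. These pairs joined *Prx*, *Ncmap*, *Mag* and *Cnp* to each other, with r from 0.78 to 0.97, and *Pmp22*, *Pmp2* and *Mal* to each other, with r from 0.79 to 0.83. No pair across these sets passed (r from -0.28 to 0.46), and *Mbp* passed with no member (r from -0.13 to 0.30). The sets were seen in the values and were not formed beforehand.

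**Figure D3:**
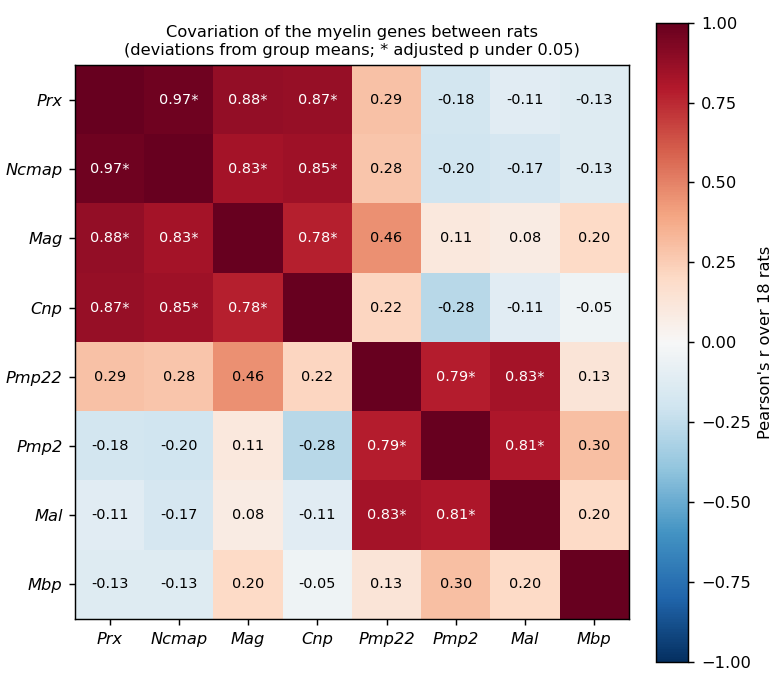
Pearson's r of each pair of myelin genes over the 18 rats, from deviations of log2 CPM from the group means; an asterisk marks an adjusted p under 0.05. *Prx*, *Ncmap*, *Mag* and *Cnp* form a block of 6 marked pairs and *Pmp22*, *Pmp2* and *Mal* a block of 3.

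The closest pair was *Prx* and *Ncmap*, with r = 0.97 and rho = 0.96 (adjusted p = 9.33e-05 for both, from the smallest p of 1e-05 that the permutations can give). This r was 0.95 without the 2 rats farthest from the median of *Prx*, and 0.96, 0.99 and 1.00 within naïve, bPYX+GFP and bPYX+NT3 rats. *Pmp22* and *Mal* had r = 0.83 and rho = 0.79 (adjusted p = 0.00048 and 0.00308), and r was 0.73 without the 2 rats farthest from the median of *Pmp22*. For *Pmp2* and *Mal*, r was 0.81 (rho 0.79, adjusted p = 0.00208 and 0.00346) and 0.74 without 2 rats. By contrast *Prx* and *Pmp2* had r = -0.18 (rho -0.17, adjusted p = 0.698), and *Prx* and *Mal* r = -0.11 (rho -0.08, adjusted p = 0.741). All 9 pairs passed again without each rat in turn, and without rats 57 and 11 together.

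Correlations between genes were wide in these libraries. Over the 69862110 pairs of 11821 genes, the median r was 0.00, with quartiles at -0.43 and 0.43, and 6.6% of pairs had an r over 0.8. Of the 28 pairs of members, 7 had an r over 0.8, and their median r was 0.21.

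**Figure D4:**
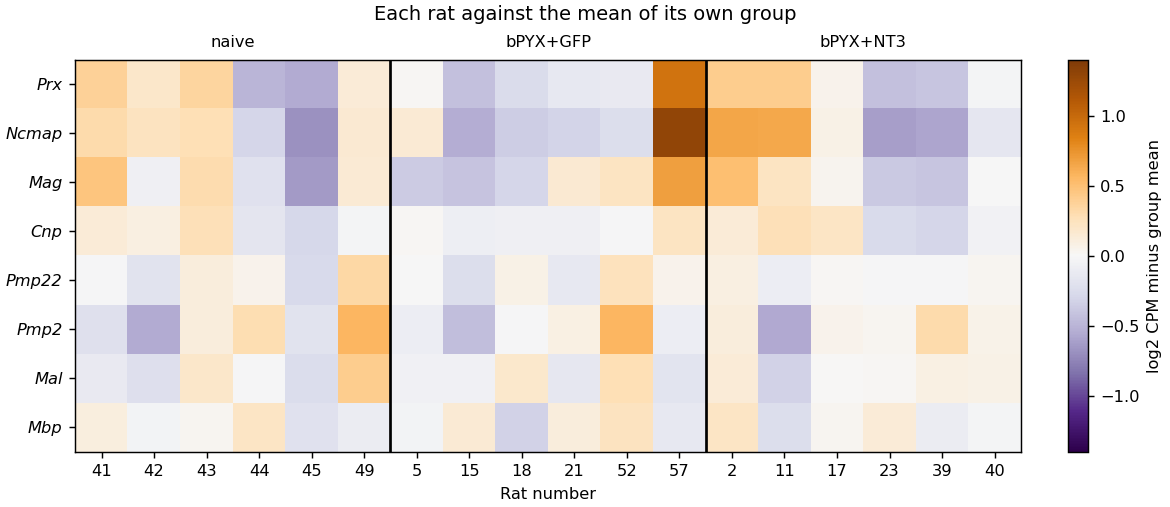
Log2 CPM of each myelin gene minus the mean of the group of the rat, for the 18 rats in their 3 groups (colour). In rat 57, *Ncmap* lies 1.30 and *Prx* 0.93 above the group mean, while *Mal* lies 0.18 below it.

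The members were also set against 4 measures of the libraries. These relations were not computed for all genes, so they cannot be called particular to the members. Per rat, and again as deviations from the group means, the share of reads on no gene had a negative correlation with *Ncmap* (r = -0.76, adjusted p = 0.00722), *Prx* (r = -0.74, adjusted p = 0.00725), *Cnp* (r = -0.73, adjusted p = 0.00408) and *Mag* (r = -0.58, adjusted p = 0.0358), by permutation over 18 rats and adjusted over 32 relations. The same share had a positive correlation with *Mal* (r = 0.63, adjusted p = 0.0197) and *Pmp2* (r = 0.60, adjusted p = 0.0330), and with *Pmp22* r was 0.23 (adjusted p = 0.402). Spearman's rho was -0.69 for *Ncmap*, -0.67 for *Prx*, -0.74 for *Cnp*, -0.49 for *Mag*, 0.56 for *Mal* and 0.58 for *Pmp2*, of which *Mag* (adjusted p = 0.108) and *Mal* (adjusted p = 0.0549) did not pass. Without the 2 rats farthest in this share, r was -0.55 for *Ncmap*, -0.59 for *Prx*, -0.64 for *Cnp*, -0.44 for *Mag*, 0.46 for *Mal* and 0.54 for *Pmp2*. The TMM factor, by which edgeR corrects the library size, moved the opposite way: r was 0.80 with *Ncmap*, 0.79 with *Prx*, -0.67 with *Pmp2* and -0.66 with *Mal* (rho 0.69, 0.70, -0.68 and -0.67), with adjusted p = 0.00408, 0.00544, 0.0157 and 0.0145 for r and 0.0151 for each rho. Without the 2 rats farthest in this factor, these r were 0.64, 0.63, -0.68 and -0.56. For *Cnp* r with this factor was 0.72, for *Mag* 0.56 and for *Pmp22* -0.31 (adjusted p = 0.00592, 0.0503 and 0.325).

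The share of reads placed at several sites had a negative correlation with *Ncmap* (-0.83), *Prx* (-0.78), *Mag* (-0.61) and *Cnp* (-0.56), with adjusted p = 0.00352, 0.00352, 0.0279 and 0.00725 (rho -0.68, -0.64, -0.60 and -0.55). For *Pmp22*, *Pmp2* and *Mal*, r with it was -0.26, 0.06 and 0.22 (adjusted p = 0.402, 0.805 and 0.428), and -0.46, -0.34 and -0.27 without the 2 rats farthest in the share, which is the sign seen in the other set. With the log2 of the depth, *Mal* passed (r = -0.60, adjusted p = 0.0393; rho -0.62, and r = -0.77 without 2 rats), while r ran from -0.56 to 0.46 in the other 7 members.

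When the share of reads on no gene was regressed out of the deviations, an alternative chosen after seeing the data, 9 of the 12 pairs across the sets passed as well. Then r was above 0 in 28 of 28 pairs and 18 pairs had an adjusted p under 0.05, the 9 pairs among them. The pairs of all genes were not computed in this setting, so these counts cannot be read as particular to the members. For *Prx* and *Mal*, r went from -0.11 to 0.67 (adjusted p = 0.0107), and for *Prx* and *Pmp22* from 0.29 to 0.71 (adjusted p = 0.00693). *Pmp2* still passed with none of *Prx* (r = 0.49, adjusted p = 0.0748), *Ncmap* (r = 0.50, adjusted p = 0.0605) and *Cnp* (r = 0.29, adjusted p = 0.29). *Prx* and *Ncmap* stayed at 0.93 and *Pmp22* and *Mal* at 0.91.

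**Figure D5:**
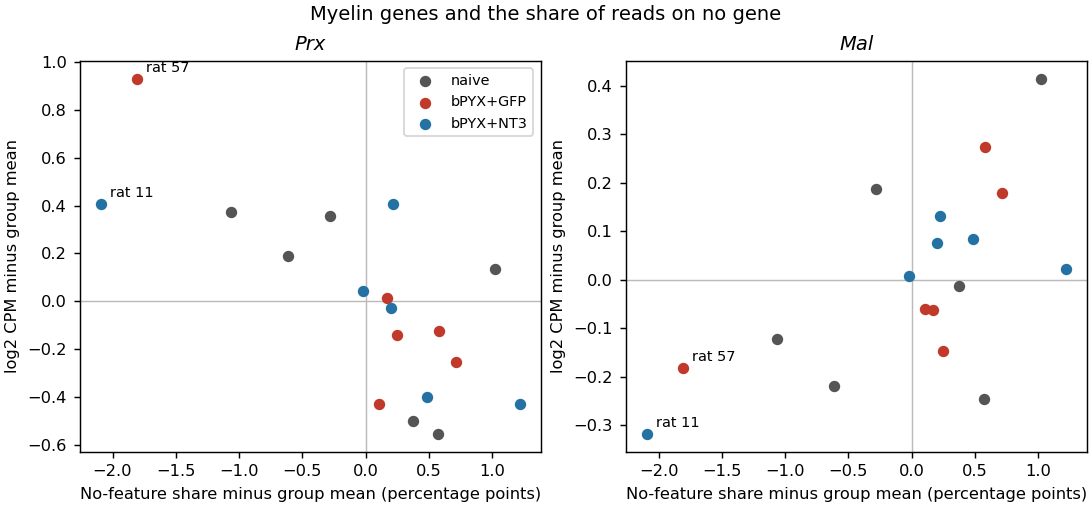
Deviation of *Prx* and *Mal* from the group mean in log2 CPM (vertical axis) against the deviation of the share of reads on no gene in percentage points (horizontal axis), 1 point a rat. *Prx* falls and *Mal* rises with the share (r = -0.74 and 0.63 over 18 rats), and rats 57 and 11 deviate by -1.81 and -2.09 points.

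Among all genes tested, the 10 with the highest mean r with the 8 members, over 18 rats that share their libraries, were *Fa2h* (0.53), *P2ry2* (0.53), *Akr1b1* (0.52), *Dag1* (0.51), *Padi2* (0.50), *Ston1* (0.49), *Reln* (0.49), *Mvb12b* (0.49), *Art3* (0.49) and *Pllp* (0.48). Member by member the likeness was closer. *Plekhb1* came closest to *Mal* (0.95), *Tax1bp3* to *Cnp* (0.95), *Dclk3* to *Pmp2* (0.86) and to *Pmp22* (0.85), and *Pcdh11x* to *Mbp* (0.73). For *Mag* the highest r among genes with a symbol was with *Sema3b* (0.88). These values are descriptions and carry no test.

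Other genes of the sheath were read from lists in the same fits. These lists too were chosen with earlier results of these data known, so their counts beside those of all genes are descriptions and no test. Of 16 further identifiers for myelin, paranode and node proteins, 7 were called lower and none higher in bPYX+GFP against naïve rats, with a median log2 fold change of -0.27. In bPYX+NT3 rats, 3 were lower, *Itga6* and *Ndrg1* among them, and 1 higher (*Nfasc*), with a median of -0.15. Another identifier of *Nfasc* was at 3 or fewer reads in every rat, so its value covers only a part of the gene's identifiers. Of all genes, 2.52% and 2.92% were called lower in these comparisons. The counts changed with single rats: the 7 became 11 without rat 57 and 4 without bPYX+GFP rat 21, naïve rat 41 or naïve rat 43, and the 3 became 6 without naïve rat 45. *Nfasc* no longer passed without bPYX+NT3 rat 2, 11 or 40 or naïve rat 44, 45 or 49 (exact permutation p = 0.0606 with all rats). Between the injured groups none of the 16 was called, whereas 5 were higher without rat 57 (13.1% of all genes), 2 without bPYX+NT3 rat 23 and 1 without bPYX+GFP rat 52. *Itga6*, the alpha chain of the Schwann cell laminin receptor, was called in both: it averaged 6194 ± 797 counts in naïve rats, 4934 ± 542 with GFP and 4982 ± 561 with NT3 (SD, n = 6). Its log2 fold changes against naïve rats were -0.32 and -0.31 (exact permutation p = 0.00216 for each, the smallest possible). *Ndrg1* and *Nfasc* were outside the rule for naming genes and are named after their values were seen, as are the genes below that were called in only 1 of these comparisons unless they had the smallest p of a list.

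Enzymes of myelin lipid synthesis had 5 of 19 genes called lower in each injured group and none higher, with medians of -0.11 in both, against the same 2.52% and 2.92% of all genes. Without rat 57, 8 were lower in bPYX+GFP rats, where 3.42% of all genes were called lower. Between the injured groups none had been called, and 2 were lower and 4 higher without rat 57. In that fit 19.8% of all genes were called, 13.1% of all being higher ones. Without bPYX+NT3 rat 23, 3 were higher in bPYX+NT3 than in naïve rats, where 840 of 11670 genes were called higher. *Ugt8*, *Fa2h* and *Cers2* were lower in both groups, *Elovl1* among others in bPYX+GFP rats, and *Aspa* and *Scd* in bPYX+NT3 rats. *Ugt8*, which makes the galactosylceramide of myelin, averaged 6377 ± 1390 counts in naïve rats, 4105 ± 820 with GFP and 4001 ± 729 with NT3 (SD, n = 6). This was a log2 fold change of -0.63 and -0.67 (exact permutation p = 0.00866 and 0.00216). *Fa2h*, which hydroxylates the fatty acids of these lipids, was at -0.60 and -0.48 (exact permutation p = 0.00216 and 0.013). *Cers2*, a ceramide synthase for very long acyl chains, was at -0.26 and -0.22 (exact permutation p = 0.00216 and 0.00866).

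Of 13 identifiers for transcription factors and neuregulin signalling of Schwann cells, only *Egr2* was called with all rats kept, at -0.30 in bPYX+GFP against naïve rats (SE 0.119; exact permutation p = 0.0519). In bPYX+NT3 rats it was at -0.18 (exact permutation p = 0.199). An identifier of *Nrg1*, the neuregulin gene of this list, was at 3 or fewer reads in every rat. The count of 1 in bPYX+GFP rats was 3 without rat 57, 2 without bPYX+GFP rat 15 or 21 or naïve rat 41, and 0 without bPYX+GFP rat 52 or naïve rat 49. In bPYX+NT3 against naïve rats 1 was lower without bPYX+NT3 rat 23 or naïve rat 41, 44 or 45. Between the injured groups 4 were higher without rat 57, where 13.1% of all genes were called higher. *Tead1*, which encodes a TEAD factor, was not called, with log2 fold changes of -0.26 and -0.31 in the injured groups (exact permutation p = 0.0779 and 0.0455). Markers of immature, non-myelinating and repair Schwann cells had 1 of 10 genes lower in bPYX+GFP rats, *Gfap* at -0.70 (exact permutation p = 0.0238). In bPYX+NT3 rats 2 were higher than in naïve rats, *Ngfr* at 0.34 and *Ncam1* at 0.16 (exact permutation p = 0.0693 and 0.0216). *Gfap* was higher in bPYX+NT3 than in bPYX+GFP rats, by 1.26 (exact permutation p = 0.0108). Of all genes, 292 of 11601 were called lower in the first comparison. In the second 361 of 11693 and in the third 125 of 11623 were called higher. Of the counts of these markers, the 1 in bPYX+GFP rats became 2 without naïve rat 49. The 2 in bPYX+NT3 rats became 1 without bPYX+NT3 rat 2 or 11 or naïve rat 44, 45 or 49. The 1 between the injured groups became 4 without rat 57, where 13.1% of all genes were called higher. It became 2 without bPYX+NT3 rat 23, where 193 of 11597 genes were called higher. *Jun*, a regulator of the repair state, was at -0.19 and 0.00 against naïve rats (exact permutation p = 0.208 and 0.978).

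Markers of other cells that the pooled ganglia could hold moved as follows. Oligodendrocyte markers, tested in 6 genes, had none called in bPYX+GFP rats, where *Cldn11* was at 0.36 and *Mog* at -0.16 (exact permutation p = 0.19 and 0.149). In bPYX+NT3 against naïve rats *Ermn* and *Mog* were lower, with log2 fold changes of -0.65 and -0.29 (exact permutation p = 0.00216 and 0.00433). This was 2 of 6 genes, against 2.92% of all genes called lower, and the count stayed at 2 without each rat. *Ermn* and *Cldn11* were lower than in bPYX+GFP rats in edgeR (exact permutation p = 0.0844 and 0.0693). This last count of 2 fell to 0 or 1 without any rat but bPYX+GFP rat 57 and bPYX+NT3 rat 23, and 1 marker was higher in bPYX+GFP than in naïve rats without rat 52 or rat 57. The summed level of that list ran from 63.5 to 102.0 CPM in naïve rats, from 66.7 to 123.1 with GFP and from 49.3 to 105.4 with NT3, and none of its 7 identifiers was at 3 or fewer reads in every rat. The summed level of the 8 members was 2630 to 3994, 2141 to 2907 and 2530 to 2990 CPM in the same order. Of the 11 neuronal markers none was called in any comparison with all rats kept, and their summed level was 13431 to 15364, 14410 to 18077 and 14033 to 18475 CPM. Most lay slightly higher than in naïve rats. Log2 fold changes were below 0 for only 1 of 11 in bPYX+GFP and 3 of 11 in bPYX+NT3 rats, with medians of 0.09 and 0.15. Of all genes, 43.9% and 49.9% were below 0. The part of this shift in the members' results was not tested. *Nefl* and *Nefm*, the neurofilament genes with the smallest p, were at 0.11 and 0.09 in bPYX+GFP rats (exact permutation p = 0.158 and 0.26). Without 1 rat, neuronal markers were called in some fits. Against naïve rats, 1 was higher in bPYX+GFP rats without naïve rat 44. In bPYX+NT3 rats 2 were higher without bPYX+NT3 rat 17 or 23, and 1 without bPYX+NT3 rat 39 or naïve rat 41 or 42. Between the injured groups 1 was lower and 1 higher without rat 57, where 19.8% of all genes were called. Without bPYX+NT3 rat 39, 1 was lower between these groups.

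Of 6 fibroblast and perineurial markers, 5 had a log2 fold change below 0 against naïve rats in each injured group. In edgeR 3 were called lower in bPYX+GFP rats (*Col1a1*, *Col3a1* and *Lum*) and 3 in bPYX+NT3 rats (*Col1a1*, *Col3a1* and *Dcn*). Of all genes, 2.52% and 2.92% were called lower in these comparisons. None of the list's 7 identifiers was at 3 or fewer reads in every rat. *Lum* and *Dcn* missed the threshold in the exact permutation test (p = 0.0649 and 0.0671). Without bPYX+GFP rat 5, 52 or 57 or naïve rat 42 or 45, 2 were lower in bPYX+GFP rats. In bPYX+NT3 rats 5 were lower without bPYX+NT3 rat 23. There 2 were lower without bPYX+NT3 rat 2, 11, 39 or 40 or naïve rat 41, 42, 45 or 49. In bPYX+NT3 rats 1 was higher without bPYX+NT3 rat 40 or naïve rat 41. Between the injured groups 1 was lower without bPYX+NT3 rat 23. Their summed level was 2177 to 3212 CPM in naïve rats, 2013 to 2621 with GFP and 1870 to 2903 with NT3. *Col1a1*, the main collagen of connective tissue, was at -0.49 and -0.34 (exact permutation p = 0.00866 and 0.0325), and *Col3a1* at -0.35 and -0.37 (exact permutation p = 0.00649 and 0.0303). The part of these cells in the members' results was not tested. Of 13 identifiers for satellite glia only 7 were tested. Identifiers of *Apoe*, *Slc1a2* and *Slc1a3* were at 3 or fewer reads in every rat, so this list covers these glia only in part. Of the 7, 0 were called against naïve rats in either group with all rats kept (1 lower in bPYX+GFP rats without rat 57). *Kcnj10* was higher in bPYX+NT3 than in bPYX+GFP rats (0.42, exact permutation p = 0.0238), with *Ptprz1* at -0.16 in bPYX+GFP rats. Endothelial markers had 1 of 8 higher in each injured group (*Tie1* in bPYX+GFP and *Flt1* in bPYX+NT3 rats), with *Emcn* at -0.14 in bPYX+GFP rats. Of all genes, 85 of 11601 and 361 of 11693 were called higher in these comparisons. *Tie1* had an exact permutation p of 0.0584 and *Flt1* of 0.0476, and without single rats 0 to 2 endothelial markers were higher in bPYX+GFP rats and 0 to 5 in bPYX+NT3 rats, the most without naïve rat 42 in both. Macrophage markers had 1 of 7 lower in bPYX+GFP rats (*Cx3cr1*) and none in bPYX+NT3 rats, with *Aif1* at -0.31 in the former. Of all genes, 2.52% and 2.92% were called lower in these groups. *Cx3cr1* no longer passed without bPYX+GFP rat 5, 15 or 18 or naïve rat 42, 44 or 45, and 1 macrophage marker was lower in bPYX+NT3 rats without rat 17. Of fat and muscle genes, *Adipoq* was lower in bPYX+NT3 than in naïve rats (-1.85, exact permutation p = 0.214) and than in bPYX+GFP rats (-2.11, exact permutation p = 0.13), and *Acta1* was at 0.72 against naïve rats. Against naïve rats, *Adipoq* did not pass without bPYX+NT3 rat 2 or 40 or naïve rat 44.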

How the data were processed

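Poly(A) RNA of the C6-C8 DRG was sequenced from 18 rats, 6 a group (paired-end, stranded TruSeq libraries). Alignment to Rnor_6.0 was done by the authors in TopHat2; they removed duplicates with Picard, counted read-pairs on RefSeq identifiers with HTSeq and deposited these counts, which are whole numbers without normalization. Conversion was by bcl2fastq 1.8.4 per the labels. HTSeq placed 30.8% to 34.6% of read-pairs on no feature, 2.79% to 3.41% on several features and 19.0% to 22.3% at several places, and none of these entered the library sizes or the fits. Reads were counted once only where they were unique, so genes with close copies or several identifiers are undercounted. Symbols came from RefSeq (14193 of 15075 identifiers matched). Small RNAs were not analysed here, and the values of some genes are not reported here.

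Groups were compared pairwise in R 4.3.3, edgeR 4.0.16 (TMM, estimateDisp, glmQLFit, glmQLFTest; no covariate; two-sided) on genes whose reads exceeded 10 in 6 or more of the 12 rats. P-values were adjusted after Benjamini and Hochberg across every gene in a fit. The SE is the absolute log2 fold change divided by the square root of F. Normalized counts scale each rat to the mean TMM-corrected library size of the 18. Exact permutation tests were run on log2 CPM (prior count 2), and covariation was tested with 100000 permutations. These steps used Python 3.11.15 (numpy 2.4.6, scipy 1.17.1, pandas 2.3.3); figures used matplotlib 3.10.9.

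All 8 members were named; in each other list, genes called in the same direction in both injured groups were named, and otherwise the 2 with the smallest p in bPYX+GFP against naïve rats. The members and the lists were chosen with earlier results of these data known. Rats are separate animals and no 2 columns were identical. Alternatives were the likelihood ratio test, DESeq2 1.42.0, scaling by its size factors, scaling by library size, no filter, more than 50 reads, 1 fit over the 3 groups, a covariate for the no-feature share, grouping by the recorded titles, a replicate block, a prior count of 0.5, no subtraction of group means and leaving out each rat. Leaving out rats 57 and 11 together and regressing out the no-feature share were added after seeing the data. The fits and the covariation step were tested on simulated data.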

Additional observations from a re-analysis of the deposited data

Results flagged for a closer look

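Of 24 sets of 6 rats (8 members in 3 groups), 4 held a value whose distance to its nearest neighbour was a larger part of the range than Dixon's critical value of 0.625 allows; chance alone gives such a gap in about 1 of 20 independent sets. The sets here are not independent, since 3 of the 4 values are those of 1 rat in genes that varied together. Over all 11821 genes, such a gap was present in 19.9% in bPYX+GFP, 9.36% in bPYX+NT3 and 3.33% in naïve rats. In bPYX+GFP rats, rat 57 had 3561 normalized counts of *Prx*, 1775 of *Cnp* and 243.1 of *Ncmap*, each the highest of its group, with gaps of 0.769, 0.705 and 0.763 of the range. In bPYX+NT3 rats, rat 11 had 4378 normalized counts of *Mal*, the lowest of its group, with a gap of 0.692. Both rats also had the lowest shares of reads on no gene and the highest TMM factors (1.07 each), and the part of these measures in the values was not tested. *Mal* without rat 11 is among the fits that left out 1 rat, in all of which it passed against naïve rats.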

How the results depend on the processing

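In bPYX+GFP against naïve rats, the count of 4 members called moved to 7 without rat 57 and to 7 without rats 57 and 11 (range 4 to 7 without each rat), and to 1 in the groups of the recorded titles. In bPYX+NT3 against naïve rats, 3 members were called and 2 to 3 without each rat. Between the injured groups, the count of 0 became 3 in the groups of the recorded titles, where 263 of 11646 genes were called. It became 2 without rats 57 and 11, where 1462 of 11477 genes were called. Without each rat it was 0 to 3, with 3 without rat 57, where 2291 of 11556 genes were called. In the groups of the recorded titles, the directions of called members turned. Log2 fold changes were 0.062 (*Pmp22*), 0.28 (*Pmp2*) and 0.10 (*Mal*) for rats titled GFP against rats titled naïve. For rats titled NT3 against rats titled naïve they were 0.32, 0.71 and 0.42. Between rats titled NT3 and rats titled GFP, *Pmp22* and *Mal*, near 0 and not called before, were called at 0.26 and 0.31. No other alternative turned the direction of a called member.

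The counts over all genes moved more. From 377 in bPYX+GFP against naïve rats, they became 848 with a covariate for the no-feature share, 174 in the groups of the recorded titles, 595 without rats 57 and 11, and 272 to 595 without each rat. From 703 in bPYX+NT3 against naïve rats, they became 2962 with the replicate block, 330 in the groups of the recorded titles, 365 without rats 57 and 11, and 365 to 1387 without each rat (the lowest without rat 11, the highest without rat 23). From 201 between the injured groups, they became 315 with no filter, 133 with more than 50 reads, 130 with the replicate block, 1462 without rats 57 and 11, and 95 to 2291 without each rat (the lowest without rat 11, the highest without rat 57). With library size alone, 167 of these genes were higher and 41 lower, against 125 and 76. The cause was not tested for any of these.

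The titles number the rats of each group alike, and no comparison had every r between deviations of same-numbered rats over 0.1, so the numbers were not taken as pairs. These r ran from -0.41 to 0.37 between naïve and bPYX+GFP rats and from -0.45 to 0.53 between the injured groups. Between naïve and bPYX+NT3 rats 5 of 6 ran from 0.27 to 0.48 and the other was -0.11. Over all comparisons, 11 of 18 were over 0.1, and 4 of 18 rats were most like a rat of their own number. With the replicate block, 4, 4 and 0 members were called in the 3 comparisons, *Cnp* being added in bPYX+NT3 rats (-0.14). Of all genes, 316 of 11601, 2962 of 11693 and 130 of 11623 were called in these fits. In bPYX+NT3 against naïve rats 1276 of them were lower, and the added call of *Cnp* has to be read against this. Covariation gave 18 pairs in place of 9 with the no-feature share regressed out, and 9 or 10 under every other alternative, those without each rat included. The exact tests gave the same counts with a prior count of 0.5.

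*Mbp*, *Mag* and *Ncmap* had the fewest reads, with *Ncmap* (-0.84 to 0.49) and *Prx* (-0.80 to 0.21) having 95% intervals in bPYX+GFP against naïve rats that include the log2 fold change of *Mal* (-0.44).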
